A study of Cyclotella cryptica with 27 samples.

Results

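Transcript levels in the diatom Cyclotella cryptica, strain CCMP332, were compared between cultures held for 8 h and cultures held for 4 h in freshwater. Both groups came from exponential cultures grown at 24 ppt salinity and 15 °C on a daily light and dark cycle. Their cells were spun down, moved at once into medium of 0 ppt and kept at 15 °C in the light with gentle agitation. The third group used here was the seawater control at 24 ppt, which the series set beside 8 freshwater times between 0 min and 10 h. The comparison rested on replicates 2 and 3 at 8 h and replicates 2 and 3 at 4 h, which were 4 of the 27 labelled columns of counts. The column labelled replicate 1 at each of these times was the mean of the other 2 and added no replicate. Of the 27 columns 16 were independent, and all 16 entered the fit so that the groups shared 1 estimate of the spread. The seawater control had 1 independent column, so every level given against it is a description without a replicate check. Nothing in the labels says that the replicates were separate cultures, and p-values then measure only the spread between these samples, which may be technical. Time in freshwater and time of day changed together between the 2 groups and cannot be told apart here.

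A diatom that is moved into freshwater takes up water, loses ions and organic osmolytes, and has to rebuild both its ion balance and its metabolism. Diatoms harvest light with fucoxanthin-chlorophyll a/c-binding proteins, a large family of thylakoid membrane proteins that carry the brown carotenoid fucoxanthin. The LI818 branch of that family is known in algae for photoprotection, in which excess excitation is released as heat. Pyruvate stands at the crossing of glycolysis, the citrate cycle, gluconeogenesis and amino acid synthesis, and several enzymes named here act on it.

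Reads assigned to genes numbered 3600996 and 3208324 at 8 h, 3354037 and 2886872 at 4 h, and 3537770 in the seawater column. Reads that aligned in more than 1 place or to overlapping genes were not counted, and these were 22.3% and 23.7% of the reads considered at 8 h, 19.8% and 29.4% at 4 h and 28.3% in seawater. Members of near-identical gene families are therefore undercounted and uncertain. How far this holds for light-harvesting proteins was not examined. One gene without a protein name, CCRYP_005887, held 10.7% and 10.1% of the gene counts at 8 h and 19.1% and 14.6% at 4 h, against 14.3% in the seawater column. Levels are given as CPM, the counts of a gene per 1000000 counts of its column, with column totals adjusted by the trimmed mean of M-values (TMM), a scaling in which a single gene of this size has little weight. CPM are not divided by gene length, so they compare 1 gene between columns and not 1 gene with another.

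With TMM scaling, far more genes were called lower at 8 h than were called higher. Of 12501 genes tested with edgeR's quasi-likelihood test, 417 (3.34%) had a Benjamini-Hochberg adjusted p below 0.05 and are called changed here. The called genes were 66 higher at 8 h (0.528% of those tested) and 351 lower at 8 h (2.81%). The median log2 fold change of 8 h over 4 h was 0.81 among the genes called higher and -1.10 among those called lower, against -0.03 over all tested genes. A change of at least 1 on the log2 scale was seen in 23 of the genes called higher and in 200 of those called lower. In all 417 called genes both 8 h columns lay on 1 side of both 4 h columns, which was also true of 43.9% of all tested genes. A protein name was deposited for 32 of the genes called higher and 145 of those called lower, and the other 240 called genes had none.

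Called genes stood away from the seawater level at 4 h and near it at 8 h. Genes called higher had a median log2 fold change over the seawater column of -0.03 at 8 h and -0.91 at 4 h. Genes called lower had a median over seawater of -0.12 at 8 h and 1.01 at 4 h, and the medians over all tested genes were -0.06 at 8 h and 0.00 at 4 h. The 8 h estimate lay closer to the seawater column than the 4 h estimate did in 380 of the 417 called genes (91.1%), which were 64 of the 66 called higher and 316 of the 351 called lower. The same was true of 64.9% of all tested genes. These distances share the 4 h and 8 h columns with the test that chose the genes, so they describe where the called genes lay and test nothing. The scaling bore on the split of the calls. With library size alone in place of TMM, 203 genes were called higher and 209 lower, and the median over all tested genes moved to 0.13. With the gene CCRYP_005887 also left out of the library sizes, a choice made after seeing the data, the counts were 115 higher and 254 lower and the median was 0.02.

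**Figure D1:**
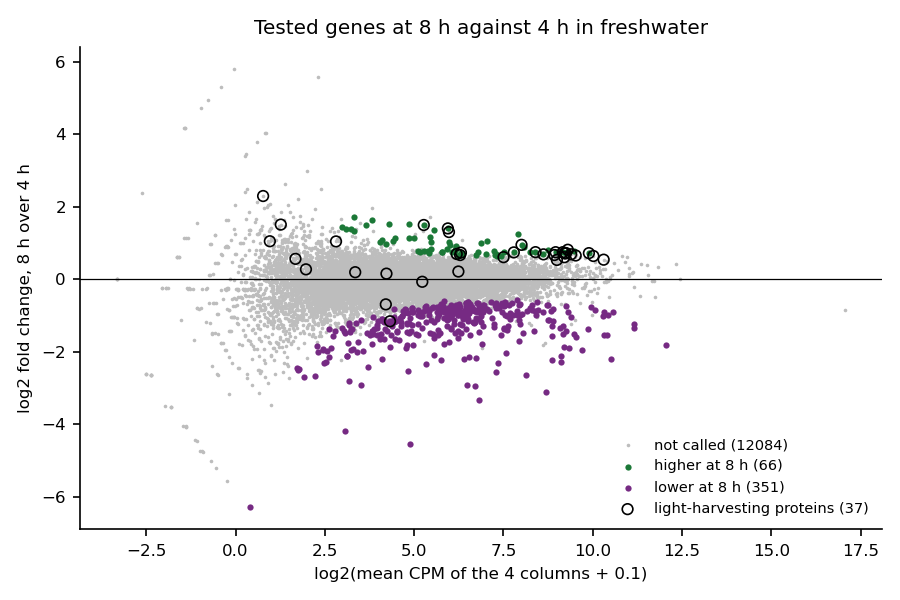
Log2 fold change of 8 h over 4 h (vertical axis) against log2 of the mean CPM over the 4 columns plus 0.1 (horizontal axis), 1 point per tested gene, coloured by the edgeR call, with the 37 light-harvesting genes ringed. Of 417 called genes 351 lie below 0 and 66 above it, and the light-harvesting genes of high abundance lie in a narrow band above 0.

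Light-harvesting proteins made up the largest named group among the genes that rose. Of 37 tested members 13 were called higher (35.1%, against 0.528% of all tested genes) and 1 was called lower, against 2.81% of all tested genes. The median log2 fold change of 8 h over 4 h was 0.70, and 34 of the 37 lay above 0, against 5818 of all 12501 tested genes. Their summed level was 14948 and 13941 CPM at 8 h, against 7952 and 10107 CPM at 4 h, and it was 14608 CPM in the seawater column. The 8 h columns thus bracketed the seawater column, and both 4 h columns were lower. The columns did not overlap between the times, with 8 h the higher, in 31 of the 37 members, against 19.1% of all tested genes. Replicate 3 lay above replicate 2 at 4 h in 31 of the 37, so the 4 h columns differed among themselves in the direction of the 8 h level.

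The fucoxanthin-chlorophyll a/c-binding proteins, the main antenna proteins of diatoms, were the larger share of this family, and were set apart after their values were seen. All 26 had a log2 fold change above 0, between 0.16 and 2.30, against 5818 of all 12501 tested genes above 0. Of the 26, 9 were called higher (34.6%, against 0.528% of all tested genes). The member with the largest called change, CCRYP_014958, had 389 and 288 CPM at 8 h, against 165 and 186 CPM at 4 h and 270 CPM in seawater. The log2 fold change was 0.95 ± 0.22 (SE, 2 columns per time; edgeR with Benjamini-Hochberg adjusted p = 0.013). Another, CCRYP_011803, had 447 and 398 CPM at 8 h, against 222 and 281 CPM at 4 h and 429 CPM in seawater. In CCRYP_016248 the values were 677 and 572 CPM at 8 h, against 329 and 415 CPM at 4 h and 585 CPM in seawater. In each of these 3 genes both 8 h columns were above both 4 h columns and at least 1 of them was above the seawater column. Several abundant members had fold changes of about this size without passing the test, such as CCRYP_001468 with 1285 and 1242 CPM at 8 h, against 702 and 917 CPM at 4 h (log2 fold change 0.64 ± 0.21, edgeR adjusted p = 0.10). The largest fold change of the family belonged to CCRYP_012279, which had 9 and 10 counts at 8 h, against 0 and 3 counts at 4 h, and was not called (edgeR adjusted p = 0.22). Among proteins named after the chlorophyll a/b antenna of plants, chlorophyll a-b binding protein 7 (CCRYP_009331) rose, with 1224 and 1143 CPM at 8 h, against 644 and 792 CPM at 4 h. A second gene of the same name, CCRYP_002133, had 18.0 and 9.91 CPM at 8 h, against 22.5 and 23.1 CPM at 4 h, and did not pass the test (log2 fold change -0.69 ± 0.28, edgeR adjusted p = 0.21).

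The 5 genes named LI818, a subset picked out after their values were seen, held both the largest called rise and the only called fall of the antenna family. CCRYP_010211 had 58.7 and 54.7 CPM at 8 h, against 16.7 and 23.8 CPM at 4 h and 70.4 CPM in seawater. CCRYP_010212 had 88.5 and 89.5 CPM at 8 h, against 24.4 and 43.5 CPM at 4 h and 92.1 CPM in seawater. Their log2 fold changes were 1.498 ± 0.30 and 1.40 ± 0.25 (edgeR adjusted p = 0.0057 and 0.00097), and both had stood more than 1 log2 unit below seawater at 4 h. CCRYP_010215 had values much like theirs, with 88.3 and 90.1 CPM at 8 h, against 27.8 and 45.0 CPM at 4 h, but missed the threshold (log2 fold change 1.30 ± 0.34, edgeR adjusted p = 0.054). CCRYP_013391, with 233 and 204 CPM at 8 h, against 134 and 153 CPM at 4 h, also missed it (edgeR adjusted p = 0.071). CCRYP_010128 went the other way, with 12.1 and 12.6 CPM at 8 h, against 29.0 and 26.1 CPM at 4 h and 11.2 CPM in seawater. The fitted log2 change was -1.16 ± 0.27 (edgeR adjusted p = 0.013). It had stood above seawater at 4 h while the other 4 LI818 genes stood below it.

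**Figure D2:**
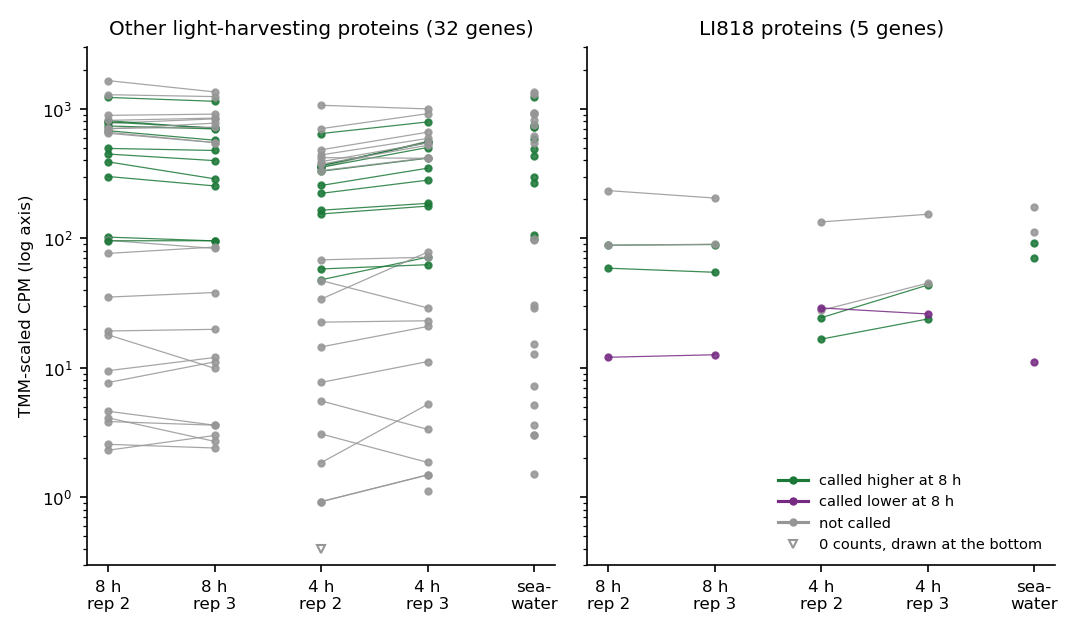
TMM-scaled CPM (log axis) of the 32 other light-harvesting genes (left panel) and the 5 LI818 genes (right panel) in the 8 h, 4 h and seawater columns, with lines joining the 2 columns of a time and colours for the edgeR call. Most genes are lower in both 4 h columns than at 8 h, and 1 LI818 gene (CCRYP_010128) is higher there; the single value of 0 counts is drawn at the bottom.

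The number of light-harvesting calls depended on single columns. It was 1 without 8 h replicate 2, 4 without 8 h replicate 3, 1 without 4 h replicate 2 and 21 without 4 h replicate 3, while the family's median log2 fold change ran from 0.51 to 0.91 across these 4 fits. The median was 0.87 with library size alone as the scaling, where the median of all genes was also shifted upward. CCRYP_010212 was called in each of the 4 fits. Every other member called higher, those given above included, lost its call without 8 h replicate 2 and without 4 h replicate 2. Over the 4 fits the log2 fold change ran from 0.72 to 1.15 in CCRYP_014958 and from 1.25 to 1.77 in CCRYP_010211. In CCRYP_010212 it ran from 1.03 to 1.87.

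Genes for pigment synthesis and photosynthetic electron transport had 2 calls, both higher. These were 2.99% of the 67 tested, against 0.528% of all tested genes. The median log2 fold change was 0.29, and 55 of the 67 lay above 0, against 5818 of all 12501 tested genes. Their summed level was 13454 and 14396 CPM at 8 h, against 9197 and 11772 CPM at 4 h, and 15797 CPM in seawater. Both 8 h columns were above both 4 h columns and below the seawater column. Uroporphyrinogen-III synthase (CCRYP_005457), which closes the ring of the tetrapyrrole from which chlorophyll and haem are made, had 41.3 and 45.6 CPM at 8 h, against 14.5 and 25.7 CPM at 4 h and 43.8 CPM in seawater. On the log2 scale the change was 1.13 ± 0.25 (edgeR adjusted p = 0.0074). Prolycopene isomerase (CCRYP_003022), which isomerises a carotenoid precursor, rose by 0.66 ± 0.19 on the log2 scale (edgeR adjusted p = 0.048), with 199 and 226 CPM at 8 h, against 118 and 152 CPM at 4 h. Both calls were lost without 8 h replicate 3 or without 4 h replicate 2, and that of prolycopene isomerase also without 8 h replicate 2 (edgeR adjusted p up to 0.265 and 0.462).

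Some other named chloroplast genes outside the 27 lists also rose, and of those given here all but HCF101 were picked out after their values were seen. Genes with chloroplastic in their name were called lower too. Among them were pyruvate, phosphate dikinase (CCRYP_020923) and glutamine synthetase (CCRYP_011559), with log2 fold changes of -1.52 and -1.37. The share of chloroplast genes called in either direction was not counted. Dependence on single columns is given here only for HCF101. PROTON GRADIENT REGULATION 5 (CCRYP_019629), which takes part in cyclic electron flow around photosystem I in plants, had 47.5 and 42.6 CPM at 8 h, against 27.4 and 25.7 CPM at 4 h. The membrane insertase PPF-1 (CCRYP_008249), whose plant relatives insert antenna proteins into thylakoids, had 120 and 140 CPM at 8 h, against 71.6 and 91.2 CPM at 4 h. CCRYP_016936, an enzyme of the plastid methylerythritol phosphate route to isoprenoids, had 52.6 and 52.2 CPM at 8 h, against 28.7 and 32.4 CPM at 4 h. In all 3 the columns of the times did not overlap, and their edgeR adjusted p-values were 0.045, 0.032 and 0.029. The iron-sulphur cluster factor HCF101 (CCRYP_005936), which serves photosystem I in plants, had 85.7 and 103 CPM at 8 h, against 41.02 and 60.3 CPM at 4 h and 121 CPM in seawater. This was a log2 fold change of 0.90 ± 0.22 (edgeR adjusted p = 0.021), and the call was lost without 8 h replicate 2, 8 h replicate 3 or 4 h replicate 2 in turn, with an edgeR adjusted p of up to 0.349.

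The remaining named genes with the largest rises had varied roles. Nramp2 (CCRYP_006566), a divalent metal transporter, had 62.9 and 73.3 CPM at 8 h, against 27.4 and 25.3 CPM at 4 h and 71.9 CPM in seawater. ABC transporter G family member 36 (CCRYP_002341), a membrane exporter, had 50.8 and 68.8 CPM at 8 h, against 26.2 and 27.2 CPM at 4 h and 72.8 CPM in seawater. Their log2 fold changes were 1.36 ± 0.20 and 1.16 ± 0.20 (edgeR adjusted p = 9.6e-05 and 0.00073). Both were called without any single one of the 4 columns, and with CCRYP_010212 they were the named genes among the 12 largest rises of which this was true. Trafficking protein particle complex subunit 3 (CCRYP_015748), part of a vesicle tether, had 13.1 and 11.4 CPM at 8 h, against 4.93 and 4.47 CPM at 4 h. Its call (log2 fold change 1.37 ± 0.38, edgeR adjusted p = 0.039) was lost without each of the 4 columns in turn. Ubiquitin-like modifier-activating enzyme 1 (CCRYP_002673), which starts the ubiquitin cascade, had 86.2 and 103 CPM at 8 h, against 41.6 and 58.8 CPM at 4 h. The acyl-protein thioesterase CCRYP_014732, which removes fatty acyl groups from proteins, had 20.0 and 28.8 CPM at 8 h, against 13.3 and 11.2 CPM at 4 h. The RNA helicase dbp7 (CCRYP_009099), a factor for large ribosomal subunit assembly in yeast, had 50.03 and 63.4 CPM at 8 h, against 32.4 and 30.9 CPM at 4 h. In each of these 4 genes the columns of the times did not overlap, and the edgeR adjusted p-values of the last 3 were 0.0059, 0.046 and 0.030. The thioesterase and dbp7 lost their call without each of the 4 columns in turn, and the ubiquitin-activating enzyme without 8 h replicate 3 or without 4 h replicate 2.

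Several genes for central carbon metabolism fell, and 1 of them had the largest called fall among genes with a protein name and at least 10 counts in each 4 h column. Of 143 tested, 10 were called lower (6.99%, against 2.81% of all tested genes) and 1 higher (0.699%, against 0.528%), while the family's median log2 fold change was 0.08. Pyruvate or phosphoenolpyruvate is a word in the name of 24 of the 143, a subset chosen after values were seen, and 6 of these 24 were called lower (25%) and none higher. The alpha subunit of the pyruvate dehydrogenase E1 component (CCRYP_012039), which starts the conversion of pyruvate to acetyl-CoA, had 23.1 and 25.2 CPM at 8 h, against 157 and 213 CPM at 4 h. It had 28.7 CPM in the seawater column, so the 8 h level was close to seawater and the 4 h level far above both. The change amounted, in log2 units, to -2.94 ± 0.27 (edgeR adjusted p = 4.6e-07). Pyruvate carboxylase (CCRYP_010390), which makes oxaloacetate, had 333 and 347 CPM at 8 h, against 1160 and 1486 CPM at 4 h and 368 CPM in seawater. The log2 fold change was -1.96 ± 0.23 (edgeR adjusted p = 4.7e-06). Of the 3 pyruvate carboxylase genes tested, a subset picked out after values were seen, this was the 1 called.

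Some enzymes that make or use phosphoenolpyruvate fell as well, and those beyond the 3 smallest p-values of the family were named after their values were seen. Pyruvate, phosphate dikinase (CCRYP_020923), which interconverts pyruvate and phosphoenolpyruvate, had 293 and 298 CPM at 8 h, against 776 and 919 CPM at 4 h and 327 CPM in seawater. The fitted log2 change was -1.52 ± 0.18 (edgeR adjusted p = 4.5e-06). The mitochondrial pyruvate dehydrogenase of the NADP+ type (CCRYP_018870), another route to acetyl-CoA, had 296 and 312 CPM at 8 h, against 705 and 842 CPM at 4 h and 281 CPM in seawater. Putative phosphoenolpyruvate synthase (CCRYP_018224) had 68.8 and 76.6 CPM at 8 h, against 143 and 165 CPM at 4 h. The pyrophosphate-type phosphoenolpyruvate carboxykinase (CCRYP_017838), which links oxaloacetate and phosphoenolpyruvate, had 1070 and 1059 CPM at 8 h, against 1860 and 2110 CPM at 4 h and 969 CPM in seawater. The log2 fold changes of these last 3 were -1.35 ± 0.18, -1.08 ± 0.19 and -0.90 ± 0.20, with edgeR adjusted p-values of 2.1e-05, 0.00056 and 0.0073. Fructose-bisphosphate aldolase class 1 (CCRYP_014948), fructose-1,6-bisphosphatase (CCRYP_018554) and malate dehydrogenase (CCRYP_002104) were also called lower, by 0.99 ± 0.17, 0.89 ± 0.24 and 0.82 ± 0.20 on the log2 scale. The 10th member called lower was glutamine-fructose-6-phosphate aminotransferase (CCRYP_013935), which opens the hexosamine pathway. It was scarce, with 23 and 5 counts at 8 h, against 50 and 38 counts at 4 h, and its edgeR adjusted p was 0.028. The 1 member called higher was a probable phosphoglucomutase (CCRYP_013320), which interconverts glucose phosphates, with 90.0 and 77.2 CPM at 8 h, against 44.4 and 55.5 CPM at 4 h.

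Some genes next to these in metabolism, which belonged to other lists or to none, fell as well, and the choice of them was made after their values were seen. How many such genes were tested was not counted, so no share is given. Malonate-CoA ligase ACSF3 (CCRYP_001740), a mitochondrial enzyme that activates malonate, had 199 and 218 CPM at 8 h, against 795 and 1020 CPM at 4 h and 240 CPM in seawater. On the log2 scale the change was -2.12 ± 0.23 (edgeR adjusted p = 6.7e-07). The succinate and acetate symporter SatP (CCRYP_009163) had 617 and 757 CPM at 8 h, against 1539 and 2457 CPM at 4 h and 858 CPM in seawater. Both opine dehydrogenase genes tested were called lower, against 2.81% of all tested genes. In other organisms this enzyme class joins an amino acid to a keto acid such as pyruvate. CCRYP_006805 had 68.2 and 79.0 CPM at 8 h, against 259 and 348 CPM at 4 h and 71.6 CPM in seawater. CCRYP_020427 had 44.9 and 51.6 CPM at 8 h, against 124 and 155 CPM at 4 h, and stayed above its 31.7 CPM in seawater. Their log2 fold changes were -2.05 ± 0.20 and -1.53 ± 0.19 (edgeR adjusted p = 2.6e-07 and 8.9e-06). Formate acetyltransferase (CCRYP_013997), which splits pyruvate into formate and acetyl-CoA, had 834 and 1029 CPM at 8 h, against 1597 and 2067 CPM at 4 h. This was a log2 fold change of -0.98 ± 0.21 (edgeR adjusted p = 0.0066).

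**Figure D3:**
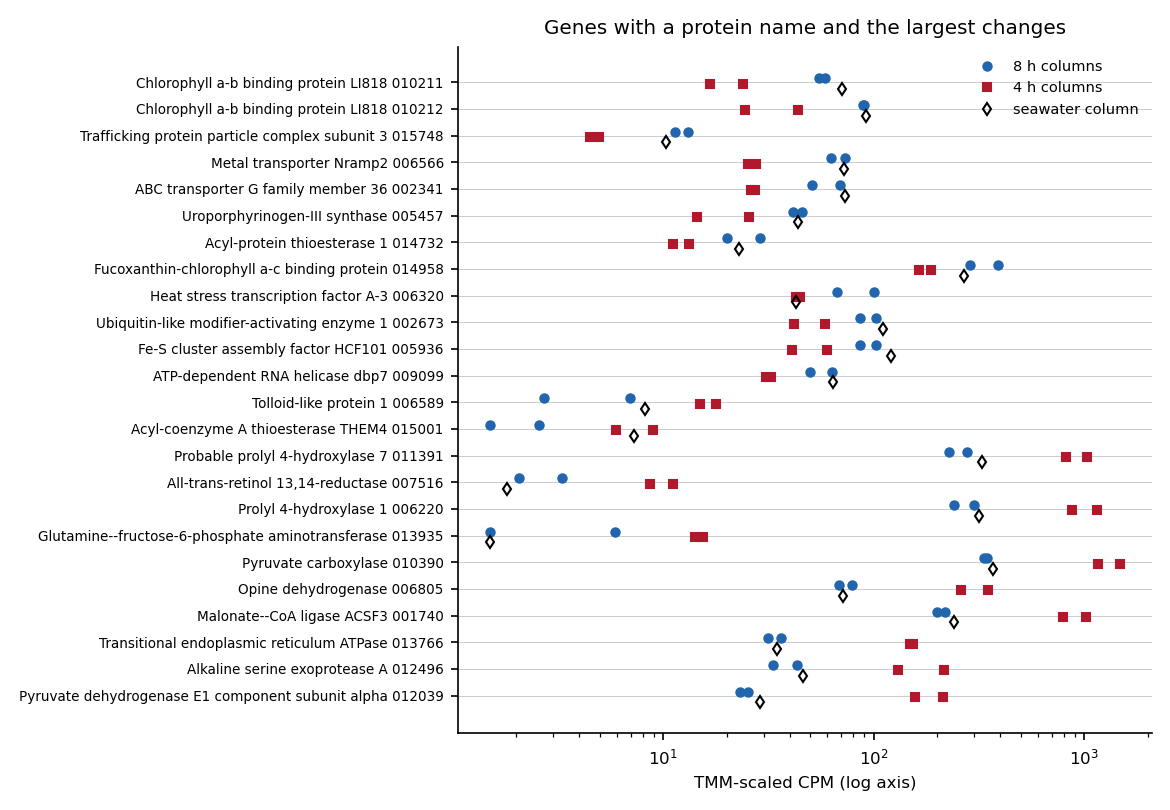
TMM-scaled CPM (log axis) of the 24 genes with a protein name and the largest called changes, 12 higher and 12 lower, in the 8 h columns (circles), the 4 h columns (squares) and the seawater column (diamonds). The 8 h circles sit beside the seawater diamond in most genes. Exceptions include heat stress transcription factor A-3 and acyl-coenzyme A thioesterase THEM4, with 4 h squares around the seawater level.

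The other named genes with the largest falls had varied roles. Transitional endoplasmic reticulum ATPase (CCRYP_013766), known as p97 or VCP, pulls ubiquitylated proteins out of membranes and complexes. It had 31.3 and 36.3 CPM at 8 h, against 148 and 153 CPM at 4 h and 34.7 CPM in seawater. The change amounted, in log2 units, to -2.16 ± 0.19 (edgeR adjusted p = 2.0e-08). Alkaline serine exoprotease A (CCRYP_012496), a secreted protease in bacteria, had 33.4 and 43.2 CPM at 8 h, against 131 and 216 CPM at 4 h and 45.9 CPM in seawater. The 4 h columns of this gene differed from each other by more than the 8 h columns did, and the groups did not overlap. Tolloid-like protein 1 (CCRYP_006589), named after animal metalloproteases, had 6.93 and 2.703 CPM at 8 h, against 17.9 and 14.9 CPM at 4 h. Acyl-coenzyme A thioesterase THEM4 (CCRYP_015001) had 2.57 and 1.501 CPM at 8 h, against 8.94 and 5.95 CPM at 4 h and 7.25 CPM in seawater. Among the 12 named genes with the largest falls it stood alone in being near the seawater level at 4 h and well below it at 8 h. The low-abundance genes CCRYP_006589, CCRYP_015001, CCRYP_013935 and the retinol reductase CCRYP_007516 were the 4 of these 12 whose call was lost without at least 1 column. Their highest edgeR adjusted p-values without a column were 0.31, 0.41, 0.34 and 0.29.

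Prolyl 4-hydroxylases, which hydroxylate proline residues of cell wall and secreted proteins in plants and of collagen in animals, included several abundant genes that fell. This set was picked out after values were seen. Of 30 tested genes 7 were called lower (23.3%, against 2.81% of all tested genes) and none higher, while the median log2 fold change was -0.08 and 15 of the 30 lay above 0. Relative to the median of all tested genes the set's median was -0.05 with TMM and with library size alone. Their summed level was 6026 and 7033 CPM at 8 h, against 11621 and 14883 CPM at 4 h, and 7895 CPM in seawater. Prolyl 4-hydroxylase 1 (CCRYP_006220) had 241 and 300 CPM at 8 h, against 872 and 1155 CPM at 4 h, with a log2 fold change of -1.91 ± 0.24 (edgeR adjusted p = 1.3e-05). Probable prolyl 4-hydroxylase 7 (CCRYP_011391) had 227 and 277 CPM at 8 h, against 815 and 1032 CPM at 4 h, with a log2 fold change of -1.87 ± 0.21 (edgeR adjusted p = 1.2e-06). A putative prolyl 4-hydroxylase (CCRYP_010032) had 346 and 392 CPM at 8 h, against 1000 and 1236 CPM at 4 h. In all 3 the seawater level lay above the 8 h columns, at 318, 326 and 419 CPM. CCRYP_021154 and CCRYP_021225, both named probable prolyl 4-hydroxylase 3, had nearly the same levels in each column. Reads that aligned to both were not counted, and the reason for the like levels was not tested. CCRYP_021154 had 1175 and 1383 CPM at 8 h, against 2775 and 3734 CPM at 4 h, and a log2 fold change of -1.35 ± 0.23 (edgeR adjusted p = 0.00067). Of the 4 all-trans-retinol 13,14-reductase genes, enzymes that saturate a retinoid double bond in animals, 3 were also called lower, again as a set chosen after values were seen. The most abundant of these 3, CCRYP_001078, had 255 and 291 CPM at 8 h, against 570 and 751 CPM at 4 h and 309 CPM in seawater.

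Few genes of the translation machinery were called, in shares close to those of all tested genes, and no ribosomal protein was. Of 102 tRNA ligases and translation factors 3 were called lower (2.94%, against 2.81% of all tested genes) and none higher, with a median log2 fold change of 0.00. Eukaryotic initiation factor 4A-III (CCRYP_020344), an RNA helicase of the exon junction complex, had 125 and 125 CPM at 8 h, against 237 and 260 CPM at 4 h and 118 CPM in seawater. The log2 fold change was -0.99 ± 0.16 (edgeR adjusted p = 0.00026). The cap-binding factor eIF4E-2 (CCRYP_015172) fell by 0.98 ± 0.21 and eIF6 (CCRYP_009173), which keeps ribosomal subunits apart, by 0.80 ± 0.19 on the log2 scale. Among 140 ribosome biogenesis factors and RNA helicases 3 were called lower (2.14%) and 1 higher (0.714%, against 0.528% of all tested genes). NSA2 (CCRYP_007543), a large subunit assembly factor in yeast, had 9.24 and 8.11 CPM at 8 h, against 14.2 and 30.5 CPM at 4 h and 32.0 CPM in seawater. A 25S rRNA adenine methyltransferase (CCRYP_020808) had 7.95 and 9.31 CPM at 8 h, against 26.2 and 27.9 CPM at 4 h and 16.6 CPM in seawater. The pre-rRNA processing factor TSR2 (CCRYP_008573) had 7.95 and 10.2 CPM at 8 h, against 21.9 and 21.2 CPM at 4 h and 10.6 CPM in seawater. In all 3 both 8 h columns lay below the seawater column, while both 4 h columns lay above it in the methyltransferase and TSR2 and below it in NSA2. The calls of the methyltransferase and TSR2 were lost without 8 h replicate 2 (edgeR adjusted p = 0.075 and 0.15). Those of eIF4E-2 and eIF6 were lost without 8 h replicate 2, 8 h replicate 3 or 4 h replicate 2 in turn, and that of NSA2 without 8 h replicate 2, 8 h replicate 3 or 4 h replicate 3. None of 75 cytosolic ribosomal proteins was called by edgeR in either direction, and their median log2 fold change was -0.15. Under either scaling, TMM or library size alone, it lay 0.11 below the median of all tested genes.

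Few stress regulators were called. Heat shock transcription factors form a large family in diatoms. Of 55 tested, 1 was called higher (1.82%, against 0.528% of all tested genes) and 2 lower (3.64%, against 2.81%). The median log2 fold change was -0.27, and 42 of the 55 lay below 0, against 6679 of all 12501 tested genes. The sign of that median was the same under each scaling tried. Heat stress transcription factor A-3 (CCRYP_006320) had 100 and 67.0 CPM at 8 h, against 42.9 and 44.7 CPM at 4 h and 42.9 CPM in seawater. The fitted log2 change was 0.94 ± 0.22 (edgeR adjusted p = 0.012), and the call was lost without 2 of the 4 columns in turn, with an edgeR adjusted p of up to 0.29. This gene stood at the seawater level at 4 h and above it at 8 h. Heat stress transcription factor C-1b (CCRYP_006667) had 22.3 and 23.4 CPM at 8 h, against 66.9 and 59.5 CPM at 4 h and 42.3 CPM in seawater. On the log2 scale the change was -1.47 ± 0.20 (edgeR adjusted p = 2.7e-05), and its seawater level lay between the 2 times. Heat stress transcription factor A-1a (CCRYP_004728) had 106 and 79.0 CPM at 8 h, against 179 and 151 CPM at 4 h and 67.0 CPM in seawater. Of 151 heat shock proteins and chaperones 2 were called lower (1.32%) and none higher. They were DnaJ (CCRYP_008213) and dnaJ 10 (CCRYP_003407), co-chaperones of Hsp70, which fell by 1.17 ± 0.28 and 0.63 ± 0.18 on the log2 scale. Among 96 antioxidant and redox genes the 2 called were lower (2.08%). Mitochondrial alternative oxidase (CCRYP_014055), which passes electrons to oxygen without pumping protons, had 53.6 and 48.3 CPM at 8 h, against 109 and 91.2 CPM at 4 h and 53.7 CPM in seawater. Phytochelatin synthase (CCRYP_001774), which makes metal-binding peptides from glutathione, fell by 1.04 ± 0.25 on the log2 scale. The calls of A-1a, both DnaJ genes and alternative oxidase were lost without 8 h replicate 2, 8 h replicate 3 or 4 h replicate 2 in turn, and that of phytochelatin synthase without 8 h replicate 2, 8 h replicate 3 or 4 h replicate 3. The call of C-1b was kept in each of the 4 fits.

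Few genes for ion transport or calcium signalling were called, and all of those were lower. Of 103 ion channels, exchangers and pumps 3 were called lower (2.91%, against 2.81% of all tested genes) and none higher, while the median log2 fold change was 0.12. An endoplasmic reticulum type calcium ATPase (CCRYP_005687), which loads calcium into internal stores, had 287 and 356 CPM at 8 h, against 558 and 627 CPM at 4 h and 375 CPM in seawater. A plasma membrane type calcium ATPase (CCRYP_003544), which exports calcium, had 118 and 156 CPM at 8 h, against 265 and 191 CPM at 4 h and 160 CPM in seawater. A voltage-gated potassium channel (CCRYP_014150) had 164 and 169 CPM at 8 h, against 389 and 221 CPM at 4 h and 120 CPM in seawater. The log2 fold changes were -0.88 ± 0.20, -0.74 ± 0.21 and -0.88 ± 0.24, with edgeR adjusted p-values of 0.0090, 0.047 and 0.049. The calls of the plasma membrane pump and the channel were lost without 8 h replicate 2, 8 h replicate 3 or 4 h replicate 2 in turn (edgeR adjusted p up to 0.514 and 0.648), with log2 fold changes of the channel between -1.23 and -0.41 over the 4 fits. That of the endoplasmic reticulum pump was lost without 8 h replicate 2 (edgeR adjusted p = 0.195). Of 49 calcium signalling proteins 2 were called lower (4.08%) and none higher. They were an uncharacterised calcium-binding protein (CCRYP_013470), with 48.2 and 45.9 CPM at 8 h, against 102 and 125 CPM at 4 h and 41.97 CPM in seawater, and the scarce calcineurin subunit B (CCRYP_007721), with 11 and 13 counts at 8 h, against 31 and 21 counts at 4 h. The first was called in each of the 4 fits that left out a column, and the second in 1 of them.

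Among 256 nutrient and metabolite transporters 2 were called higher, both given above, and 7 lower. These shares, 0.781% higher and 2.73% lower, were close to the 0.528% and 2.81% of all tested genes. The lower ones besides SatP carried iron, phosphate, amino acids or purines, or had no named substrate. Vacuolar iron transporter 1 (CCRYP_010314), which stores iron in the vacuole in plants, had 60.5 and 64.3 CPM at 8 h, against 113 and 175 CPM at 4 h and 64.9 CPM in seawater. This was a log2 fold change of -1.20 ± 0.19 (edgeR adjusted p = 0.00014). Nramp2, another gene for metal transport, had risen over the same interval. The phosphate-repressible phosphate permease (CCRYP_018958) had 41.05 and 46.8 CPM at 8 h, against 102 and 89.3 CPM at 4 h and 45.9 CPM in seawater. Of 62 genes for osmolytes and amino acids 2 were called lower (3.23%), the alanine and aspartate aminotransferases CCRYP_005263 and CCRYP_004959, which fell by 0.90 ± 0.22 and 0.72 ± 0.20 on the log2 scale. The alanine aminotransferase, which makes alanine from pyruvate, had 818 and 972 CPM at 8 h, against 1465 and 1875 CPM at 4 h and 1118 CPM in seawater. Chloroplastic glutamine synthetase (CCRYP_011559), which assimilates ammonium, was the 1 call of 26 nitrogen genes (3.85%). It had 5.39 and 10.8 CPM at 8 h, against 13.9 and 27.9 CPM at 4 h, and both times were below its 40.8 CPM in seawater. The calls of both aminotransferases were lost without 8 h replicate 2, 8 h replicate 3 or 4 h replicate 3 in turn, and that of glutamine synthetase without 8 h replicate 2 or without 4 h replicate 3 (edgeR adjusted p up to 0.235, 0.30 and 0.32).

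Of 191 lipid genes 5 were called lower (2.62%, against 2.81% of all tested genes) and 1 higher (0.524%, against 0.528%). The fatty acid synthesis enzyme 3-oxoacyl-[acyl-carrier-protein] reductase (CCRYP_018531) had 348 and 383 CPM at 8 h, against 809 and 1282 CPM at 4 h and 482 CPM in seawater, a log2 fold change of -1.52 ± 0.21 (edgeR adjusted p = 5.4e-05). Diacylglycerol kinase 7 (CCRYP_012426), which makes the signalling lipid phosphatidic acid, fell by 0.87 ± 0.19 on the log2 scale. Very-long-chain 3-oxoacyl-CoA reductase (CCRYP_006567), which acts in fatty acid elongation, rose by 0.81 ± 0.18, with 85.4 and 95.2 CPM at 8 h, against 43.5 and 59.5 CPM at 4 h. The call of the synthesis enzyme was kept without any single one of the 4 columns. That of the kinase was lost without 8 h replicate 2, 8 h replicate 3 or 4 h replicate 2 in turn, and that of the elongation enzyme without 8 h replicate 3 or without 4 h replicate 2.

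Signalling and turnover genes gave few calls, at shares near or below the 2.81% of all tested genes called lower. Of 126 protein kinases 4 were called lower (3.17%) and none higher, among them RIO2 (CCRYP_019084), an atypical kinase of small ribosomal subunit maturation, with 18.5 and 14.4 CPM at 8 h, against 26.8 and 40.2 CPM at 4 h. In the proteasome and ubiquitin system 3 of 180 were called lower (1.67%) and 1 higher (0.556%, against 0.528% of all tested genes). The E3 ligase WAV3 (CCRYP_001983) had 121 and 124 CPM at 8 h, against 223 and 239 CPM at 4 h and 114 CPM in seawater, a log2 fold change of -0.92 ± 0.16 (edgeR adjusted p = 0.00065). Autophagy-related protein 8 (CCRYP_016027), named after its values were seen, coats the autophagosome and had 65.7 and 68.8 CPM at 8 h, against 109 and 105 CPM at 4 h. In vesicle traffic 3 of 134 were called lower (2.24%) and 1 higher (0.746%). Of 88 cyclins and cell cycle genes the 2 calls were lower (2.27%). Cyclin-U1-1 (CCRYP_003472) had 70.8 and 71.8 CPM at 8 h, against 113 and 108 CPM at 4 h, and a cyclin-D1 gene (CCRYP_003919) had 0 and 0 counts at 8 h, against 10 and 5 counts at 4 h. The floor for a count of 0 is 3 counts per column, so a level up to that number was not excluded at 8 h. One gene each was called lower in DNA replication and repair (DNA polymerase kappa, of 96), cytoskeleton and motors (myosin-J, of 73), splicing (the U1 70 kDa protein, of 56) and chromatin modification (histone acetyltransferase HAC12, of 42). These 4 calls and that of cyclin-U1-1 were lost without 8 h replicate 2, 8 h replicate 3 or 4 h replicate 2 in turn, and that of RIO2 without 8 h replicate 2, 8 h replicate 3 or 4 h replicate 3, while that of WAV3 was kept in each of the 4 fits. Organelle ribosomal proteins (34), histones (29), respiratory chain and ATP synthase genes (38) and photoreceptors (12) had no call by edgeR in either direction.

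**Figure D4:**
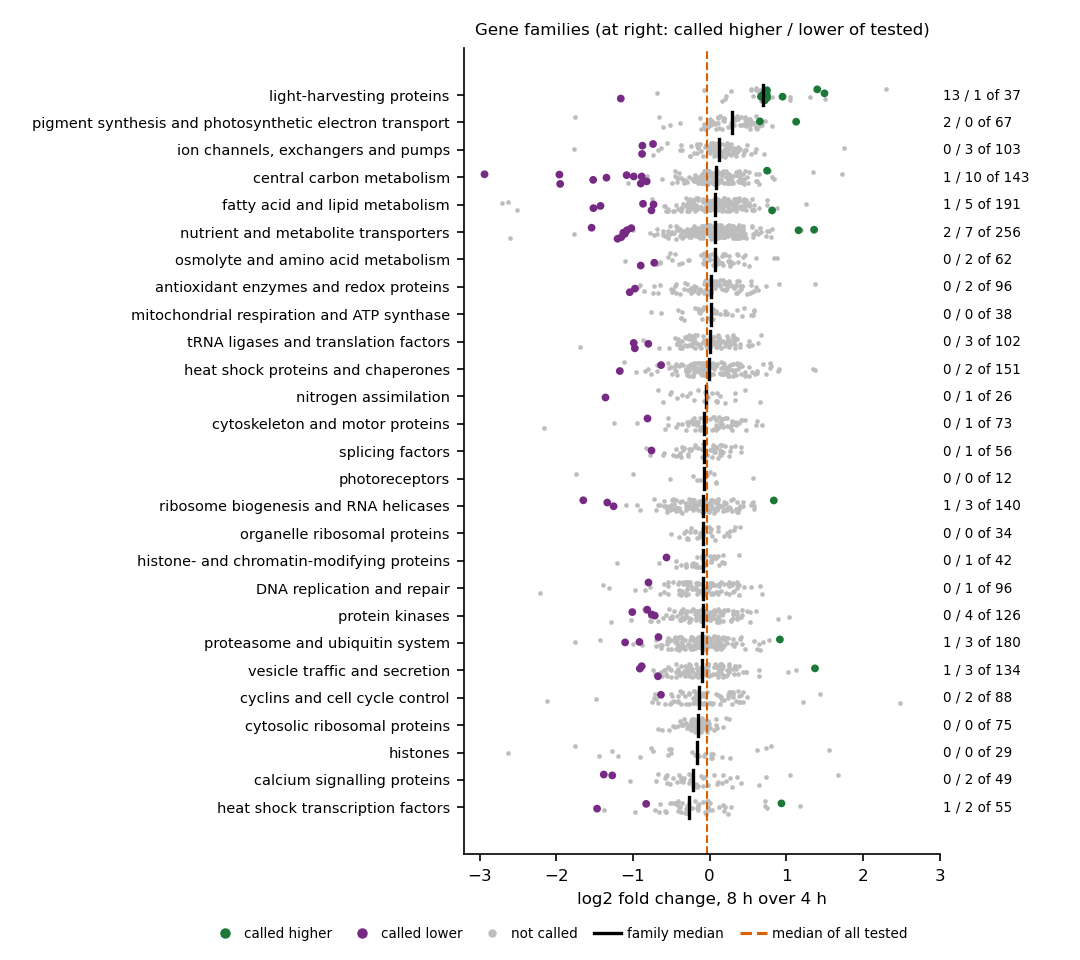
Log2 fold change of 8 h over 4 h for the tested genes of 27 families, with family medians (black bars), the median of all tested genes (dashed line) and calls in colour; 4 points beyond the axis, among them the called cyclin-D1 gene, are not drawn. Light-harvesting proteins have the highest median (0.70) and 13 calls above 0, whereas central carbon metabolism has 10 calls below 0 around a median of 0.08.

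Among called genes with at least 10 counts in each column of the higher time, the largest changes in both directions belonged to genes without a protein name. CCRYP_010384 had 2.05 and 2.703 CPM at 8 h, against 54.9 and 56.9 CPM at 4 h and 6.34 CPM in seawater, a log2 fold change of -4.55 ± 0.37 (edgeR adjusted p = 7.4e-09). CCRYP_002980 had 4 and 2 counts at 8 h, against 40 and 51 counts at 4 h and 1 count in seawater. CCRYP_016574 had 16.7 and 24.3 CPM at 8 h, against 177 and 232 CPM at 4 h and 22.3 CPM in seawater, a log2 fold change of -3.33 ± 0.22 (edgeR adjusted p = 3.5e-10). In all 3 both 4 h columns were above the seawater column, while the 8 h columns lay below it in CCRYP_010384, above it by a few counts in CCRYP_002980 and on either side of it in CCRYP_016574. The largest rises among unnamed genes were smaller and belonged to CCRYP_007693, CCRYP_014906 and CCRYP_012313, at 1.72 ± 0.41, 1.64 ± 0.29 and 1.54 ± 0.28 on the log2 scale. The call of CCRYP_007693 was lost without 8 h replicate 2, 8 h replicate 3 or 4 h replicate 2 in turn (edgeR adjusted p up to 0.20). CCRYP_012313 had 28.7 and 30.0 CPM at 8 h, against 10.5 and 9.68 CPM at 4 h and 25.1 CPM in seawater.

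The whole time course placed the 4 to 8 h step among the others. The light-harvesting family had a median log2 fold change over seawater of -0.36 right after transfer (0 min), -0.52 after 15 min and -0.66 after 30 min. It was -0.92 after 1 h and -0.77 after 2 h, then -0.70 after 4 h, -0.04 after 8 h and -0.45 after 10 h. The family's median was therefore lowest at 1 h, near the seawater column at 8 h and lower again at 10 h. The 0 min and 1 h values each rest on 1 independent column. The family's summed level was 6885 CPM at 1 h, against 7040 and 8615 CPM at 30 min and 7280 and 9493 CPM at 2 h. A lowest point at 1 h is thus not established. At 10 h the family's summed level was 9763, 11487 and 9597 CPM, below both 8 h columns. In 29 of the 37 genes the mean at 10 h lay between the means at 4 h and 8 h. The 12 named genes with the largest falls had a median over seawater of -0.46 right after transfer, 0.70 after 15 min and -0.57 after 30 min. Their median was 1.22 after 1 h, 1.71 after 2 h and 1.92 after 4 h, then -0.22 after 8 h and 0.66 after 10 h. Pyruvate dehydrogenase E1 alpha, the first of them, had 61.7, 65.3 and 72.3 CPM at 10 h, above its 8 h columns and below its 4 h columns. These genes were chosen for their difference between 4 h and 8 h, so that step of the course is fixed by the choice. All values in this paragraph share the seawater column.

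**Figure D5:**
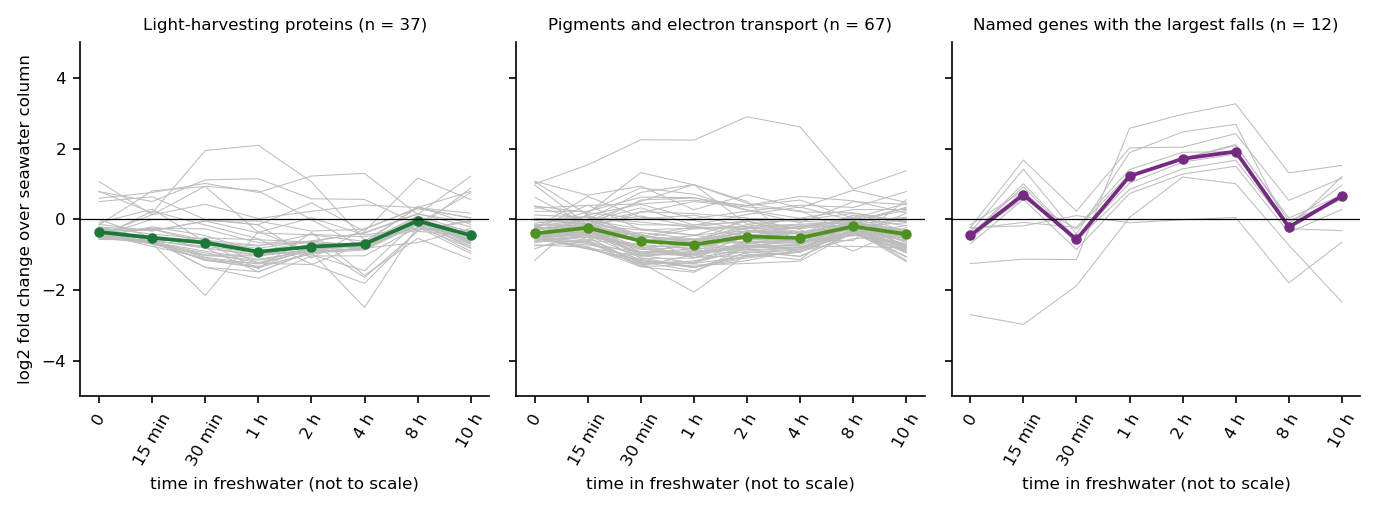
Log2 fold change over the seawater column (vertical axis) at 8 times in freshwater (horizontal axis, not to scale) for light-harvesting genes, genes of pigment synthesis and electron transport, and the 12 named genes with the largest falls, with 1 grey line per gene and the median in colour. The light-harvesting median is -0.92 at 1 h and -0.04 at 8 h, and the median of the 12 falling genes is 1.92 at 4 h and -0.22 at 8 h.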

How the data were processed

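The authors deposited raw gene counts per column made with HTSeq 0.11.3 after alignment with STAR 2.7.3a, per the submitters' processing notes; libraries were made from polyA RNA, per the labels' protocols. Genome build, annotation and strand setting were not stated in the sources used, which leaves antisense and overlapping genes uncertain. Rows of uncounted reads entered neither library sizes nor tests. The deposited edgeR table was not used. Columns matched to no sample numbered 0. The 14109 reference genes shared 0 IDs with the files, and coordinates are therefore left out.

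Columns that were copies or weighted means of others in their group were left out, which kept 16 of 27 columns. Genes passing filterByExpr (minimum count 10, minimum total 15) were scaled by TMM and tested in R 4.3.3 with edgeR 4.0.16 and limma 3.58.1, using robust quasi-likelihood fits with a coefficient for each group, 7 residual degrees of freedom and Benjamini-Hochberg adjustment over all 12501 genes. Standard errors were derived from the F statistic. On simulated data with 200 of 12501 genes changed, the test of 8 h against 4 h recovered 68% of 2-fold and 95% of 4-fold changes, with 8 false calls of 171. The changed genes were drawn only from those above a minimum mean CPM, with as many raised as lowered. Recovery in scarcer genes was not tested. Gene counts of 2886872 to 3600996 per column leave wide counting error in genes at a few counts.

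Families were word matches to deposited protein names, which cover 45.9% of tested genes. Named genes were, among called genes with at least 10 counts in each column of the higher time, the 12 largest changes in each direction with a protein name, the 3 largest in each direction without one, and the 3 smallest p-values per family. Further names were chosen after their values were seen. The comparison, gene lists and rules were chosen with earlier results of these data known. The 2 replicate numbers shared by 8 h and 4 h were not taken as pairs. Alternatives covered columns, replicate block, scaling, DESeq2 1.42.0, limma-voom, count filters and leaving out each column.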

Additional observations from a re-analysis of the deposited data

How the results depend on the processing

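All 417 called genes kept their sign in every alternative that tested them, and none reversed. Their 8 h and 4 h columns did not overlap and every alternative reused these columns, so a change of sign was hardly possible. The number of calls was less stable. All 27 columns as deposited, with copies and means counted as replicates, gave 3511 calls, 1307 higher and 2204 lower. A fit of the 4 columns alone gave 276 calls, of which 42 were higher. Calls higher at 8 h numbered 101 with the mean of the copied columns, 103 with DESeq2 and 203 with library size alone, which gave 209 lower and 49.3% of its calls higher, against 15.8% with TMM. With library size alone and without the most abundant gene, added after seeing the data, 115 were higher. With no filter on low counts there were 744 calls, 179 higher and 565 lower. A minimum count of 30, DESeq2 size factors and limma-voom gave 443, 399 and 368 calls.

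Leaving out 1 column left that time with 1 column, assumed to vary like the other groups. The calls then ran from 143 to 665, with 14 to 174 higher and 129 to 491 lower: 143 without 8 h replicate 2, 187 without 8 h replicate 3, 224 without 4 h replicate 2 and 665 without 4 h replicate 3. Of the 70 genes named by rule 24 were called without any 1 of the 4 columns, and 41, 38, 35 and 12 lost the call in those fits.

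The labels do not say whether the replicate numbers shared by 8 h and 4 h mark pairs. Deviations of replicate 2 from the mean of its time correlated at 0.19 between 8 h and 4 h, over the 12501 tested genes. That value cannot tell whether the replicates were paired. The replicate block in the fit of 16 columns gave 612 calls, of which 148 were higher and 464 lower, and in the fit of 4 columns 992 calls, 352 higher and 640 lower. The cause of these shifts was not tested.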

Other observations

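Some enzymes that break down amino acids were among the called genes outside the lists, and were picked out after their values were seen. How many such enzymes were tested or called was not counted, and their dependence on single columns is not given. Branched-chain aminotransferase (CCRYP_009721), which removes the amino group of leucine, isoleucine and valine, had 27.7 and 32.7 CPM at 8 h, against 69.1 and 41.7 CPM at 4 h. The beta subunit of 2-oxoisovalerate dehydrogenase (CCRYP_019224), which acts on the resulting keto acids, had 78.5 and 62.2 CPM at 8 h, against 115 and 139 CPM at 4 h. Methylmalonyl-CoA mutase (CCRYP_008838), which passes propionyl units to the citrate cycle, had 93.1 and 91.6 CPM at 8 h, against 179 and 210 CPM at 4 h. Their log2 fold changes were -0.88 ± 0.23, -0.85 ± 0.18 and -1.07 ± 0.17 (edgeR adjusted p = 0.031, 0.0071 and 0.00024). A kynurenine/alpha-aminoadipate aminotransferase (CCRYP_004064) and alpha-aminoadipic semialdehyde synthase (CCRYP_019250), which act in lysine breakdown in animals, fell by 1.18 ± 0.25 and 0.64 ± 0.17 on the log2 scale. In all 5 both 4 h columns lay above the seawater column. The 8 h columns also lay above it in 4 of the 5, and on either side of it in CCRYP_019224.

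Of 30 genes named trypsin, mite allergen or tolloid, a set chosen after values were seen, 5 were called lower (16.7%, against 2.81% of all tested genes) and none higher. Their median log2 fold change was -0.06, and 13 of the 30 lay above 0. Mite allergen Der p 3 (CCRYP_006591), a name for a serine protease, had 275 and 262 CPM at 8 h, against 527 and 644 CPM at 4 h and 294 CPM in seawater. Among called genes outside the lists were also 2 ribosome assembly factors, picked out in the same way. MAK16 (CCRYP_018133), a large subunit assembly factor in yeast, had 19.5 and 25.2 CPM at 8 h, against 34.9 and 42.8 CPM at 4 h and 43.5 CPM in seawater. The yeast relative of mRNA turnover protein 4 (CCRYP_006761) also acts in large subunit assembly. It had 31.3 and 34.8 CPM at 8 h, against 48.4 and 66.2 CPM at 4 h and 65.8 CPM in seawater. The 8 h columns of both genes lay below seawater.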
